A study of Mus musculus with 6 samples.

Results

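The cytosolic RNA and DNA sensing genes are here the 10 genes Ddx58, Ifih1, Dhx58, Mavs, Mb21d1, Tmem173, Zbp1, Tbk1, Irf3 and Trex1, taken by their symbols from an RNA-seq table of 26110 genes. Expression was measured in MHCIIhi cells sorted by flow cytometry from the muscularis externa (ME), the muscle layer of the small bowel wall. All mice were naive and untreated and carried the genotype CX3CR1+/GFP, in which 1 allele of the fractalkine receptor gene is replaced by green fluorescent protein, so that GFP stands for CX3CR1 in the sort. Both groups therefore share the reporter allele, on a C57BL/6 background, and differ in the sort gate alone, with 3 libraries of MHCIIhiCX3CR1- and 3 of MHCIIhiCX3CR1+ cells. Each group was made from pooled ME of several mice, and it is not stated that every library had a pool of its own. The p-values then measure the spread between libraries, which may be technical. The sample labels call the cells dendritic cells, whereas the study calls them macrophages, and the labels state no age.

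Cells detect foreign or misplaced nucleic acid in the cytosol through sensor proteins. RIG-I (Ddx58) and MDA5 (Ifih1) bind double-stranded RNA, are regulated by LGP2 (Dhx58) and signal through the mitochondrial adaptor MAVS. The enzyme cGAS (Mb21d1) binds double-stranded DNA and makes the cyclic dinucleotide cGAMP, which activates the adaptor STING (Tmem173), while ZBP1 recognises Z-form nucleic acid and TREX1 degrades cytosolic DNA. Both adaptors recruit the kinase TBK1, which phosphorylates the transcription factor IRF3 and so induces type I interferon. Resident macrophages and dendritic cells are among the cells that carry these sensors, and several of the sensor genes are themselves induced by interferon.

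Of the 10 genes, 1 was called different between the populations: Mb21d1 was 2.63-fold lower on average in CX3CR1- than in CX3CR1+ cells. Called means at least 2-fold and an adjusted p of at most 0.05, from limma on log2(value + 1) with Benjamini-Hochberg adjustment over the 17812 tested genes. Tmem173 and Tbk1 passed the adjusted p but not the 2-fold threshold, with means 1.71-fold and 1.63-fold lower in CX3CR1- cells. No gene of the 10 was called higher, and Irf3 was the only one of them whose 3 CX3CR1- values all lay above the 3 CX3CR1+ values. The share of all tested genes called lower was 8.15% and the share called higher was 12.2%, beside 1 and 0 of the 10 sensing genes.

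The promoters of 3 of these genes are shown: Ddx58 and Ifih1, which hold a match to the interferon-stimulated response element, and Mb21d1, the gene called lower. No response to interferon was measured in these naive mice. The sequences are from RefSeq on GRCm38.p6, all on the minus strand and printed 5′ to 3′ in the direction of transcription. Base +1 is the first base of the transcript. In Ddx58 and Ifih1 the capitals mark the match, and in Mb21d1 they mark the first 30 transcribed bases.
Ddx58, chr4:40239796-40239915, bases -90 to +30: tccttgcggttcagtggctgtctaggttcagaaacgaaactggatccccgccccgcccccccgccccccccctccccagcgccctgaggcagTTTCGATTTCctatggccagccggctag
Ifih1, chr2:62646206-62646235, bases +21 to +50: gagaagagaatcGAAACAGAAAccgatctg
Mb21d1, chr9:78443208-78443327, bases -90 to +30: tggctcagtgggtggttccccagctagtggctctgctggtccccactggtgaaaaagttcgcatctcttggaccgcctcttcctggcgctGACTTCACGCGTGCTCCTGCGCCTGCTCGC

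The window searched ran from 250 bases before to 50 bases after each start, and 7 of the 10 genes have one in the RefSeq table. Dhx58, Tmem173 and Zbp1 have none there. The letters GAAANNGAAA, searched on both strands, occur in 3.44% of all 32851 windows. They were found in Ddx58 at bases +3 to +12 on the strand opposite to the gene, and in Ifih1 at bases +33 to +42 on its own strand. The windows of Mavs, Mb21d1, Tbk1, Irf3 and Trex1 hold no match to these letters. The letters TTCNNNGAA of the gamma-activated site, searched on both strands, occur in 8.30% of all windows and in none of these 7. A match is a description of the sequence and not a measured binding site. Of the genes with a match, Ddx58 and Ifih1, neither was called in either direction.

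The depth of the 6 libraries was about 5346379 to 17616748 reads, and 3 reads corresponded to normalized values of 1.39 to 5.36. The 10 sensing genes lay far above this level, with about 27 reads for the lowest value (Dhx58) and about 1451 for the highest (Ifih1). The populations also differed in ways that go beyond these genes. Of the normalized total, a share of 51.7 ± 3.76% fell on mitochondrially encoded genes in CX3CR1- cells, and 19.6 ± 1.55% in CX3CR1+ cells (SD, n = 3 each). All 11 macrophage markers other than Cx3cr1, the gene of the sort gate, were lower in CX3CR1- cells, with a summed level of 10555 to 12475 against 52837 to 58677. By contrast, 10 of 11 conventional dendritic cell markers were higher there (6345 to 7054 against 568 to 659), as were 12 of 12 epithelial markers (17873 to 32974 against 30.1 to 59.8). Of the epithelial markers, Epcam, Krt8, Krt20, Fabp1, Alpi and Pls1 were at 3 reads or fewer in every CX3CR1+ library, and 1 of them was at 0. The 6 of 6 fibroblast markers (4117 to 12168 against 181 to 316) and 6 of 8 B and plasma cell markers (1991 to 4666 against 459 to 553) were also higher in CX3CR1- cells, and Mzb1, a plasma cell gene, was at 0 in every CX3CR1+ library. The part of these differences in the results on the sensing genes was not tested. In bulk samples, fewer cells of a type and less RNA per cell cannot be told apart.

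**Figure D1:**
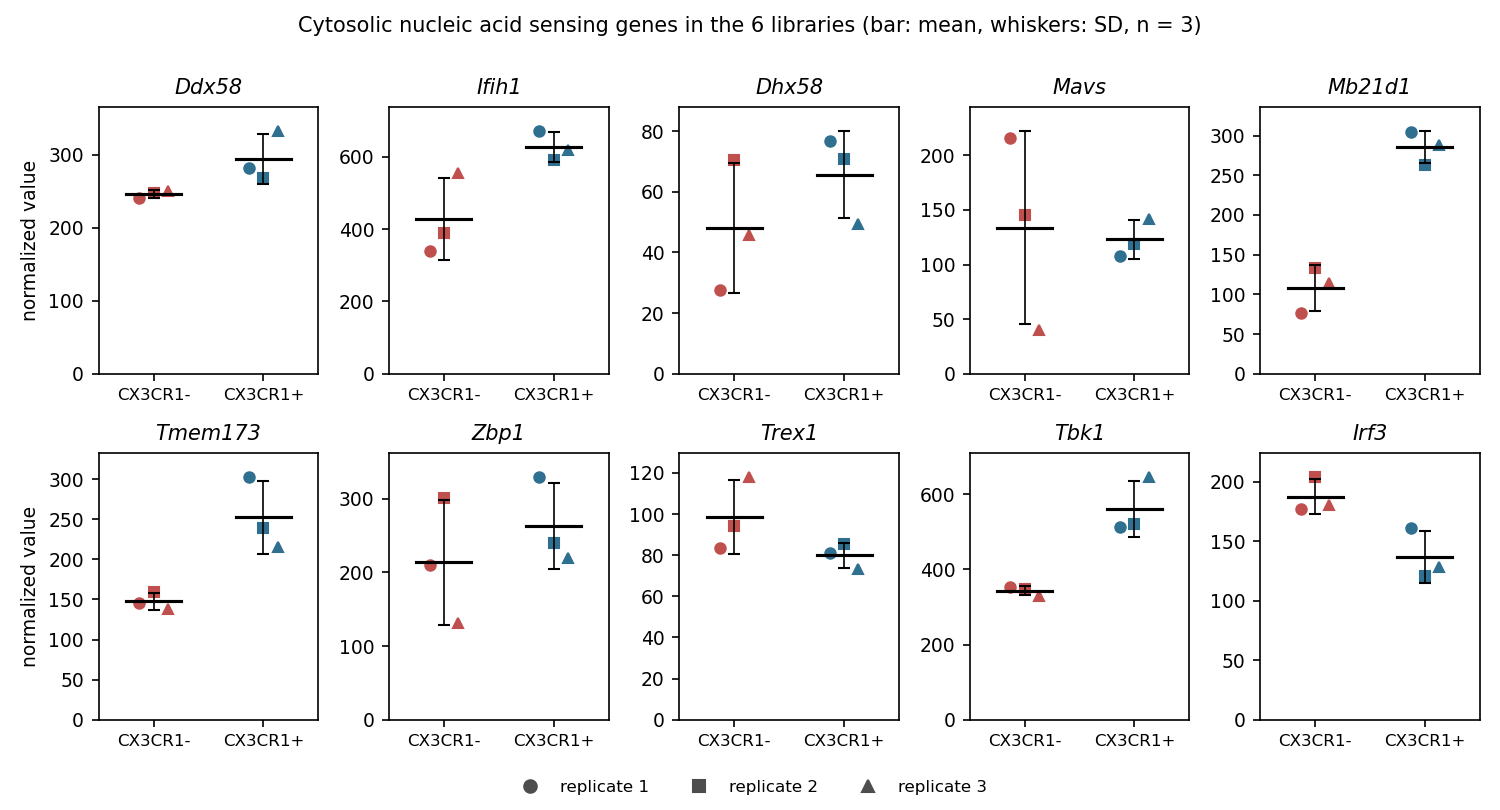
Normalized value (linear y axis from 0, arbitrary units after the authors' normalization) of each of the 10 genes in the CX3CR1- (red) and CX3CR1+ (blue) libraries, with circle, square and triangle for replicates 1, 2 and 3, bars for the mean and whiskers for the SD (n = 3). The groups are separated for Ddx58, Ifih1, Mb21d1, Tmem173, Tbk1 and Irf3, and overlap for Dhx58, Mavs, Zbp1 and Trex1, and the Mavs values of the CX3CR1- libraries run from 40.5 to 216.

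The DNA sensor Mb21d1 (chromosome 9, 78430526 to 78443237, GRCm38, minus strand) had normalized values of 76.9, 134 and 115 in CX3CR1- replicates 1, 2 and 3. In CX3CR1+ replicates 1, 2 and 3, its values were 304, 263 and 289. The highest CX3CR1- value was thus below the lowest CX3CR1+ value, and the library order is the same for all values that follow. The group means were 109 ± 29.0 and 285 ± 20.5 (SD, n = 3 each), a log2 fold change of -1.42 (SE 0.26, 95% interval -2.00 to -0.84, adjusted p = 0.00283, limma). The exact permutation test over libraries gave p = 0.1, which is the smallest that 3 libraries against 3 allow. The call held under all 15 alternative settings, with log2 fold changes of -1.59 to -1.19 and adjusted p-values of 0.00152 to 0.0184. The absolute change of Mb21d1 was larger than that of 79.6% of the tested genes. Its exons overlap those of Gm8093 on the other strand, which was at 7.35 ± 2.11 and 7.80 ± 5.05 (SD, n = 3), and the library kit does not mark strand. Of the 31-base words in the Mb21d1 transcripts, 6.80% occur in another gene.

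Tmem173 encodes STING, the membrane adaptor of the endoplasmic reticulum that binds the product of cGAS (chromosome 18, 35733679 to 35740554). It was at 146, 159 and 138 in CX3CR1- and at 303, 239.5 and 215 in CX3CR1+ libraries. Here too the groups did not overlap. Means were 148 ± 10.8 and 253 ± 45.3 (SD, n = 3), and the log2 fold change was -0.76 (SE 0.23, 95% interval -1.26 to -0.25, adjusted p = 0.0344, limma), below the 2-fold threshold. The adjusted p rose above 0.05 when any 1 library was left out except CX3CR1- replicate 2: to 0.0634 and 0.0639 without CX3CR1- replicates 1 and 3, and to 0.158, 0.0998 and 0.0598 without CX3CR1+ replicates 1, 2 and 3. It was 0.0857 after scaling to an equal total of genes not mitochondrially encoded and 0.0722 without a trend in the variance prior, and the log2 fold change stayed between -0.87 and -0.59 in all 15 settings.

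Zbp1 encodes the sensor of Z-form nucleic acid that also triggers necroptosis, and its gene lies on chromosome 2 (173206612 to 173218923, minus strand). The values were 210.1, 301 and 131 in CX3CR1- and 329.9, 241 and 219 in CX3CR1+ libraries. The groups overlapped, since CX3CR1- replicate 2 lay above both CX3CR1+ replicates 2 and 3. Zbp1 gave a log2 fold change of -0.35 (SE 0.31, 95% interval -1.05 to 0.34, adjusted p = 0.464, limma), with means of 214 ± 85.0 and 263 ± 58.7 (SD, n = 3).

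The exonuclease gene Trex1 (chromosome 9, 109057933 to 109059734) removes DNA that would otherwise reach cGAS. Its values were 83.3, 94.3 and 118 in CX3CR1- against 81.0, 85.5 and 73.2 in CX3CR1+ libraries. Only CX3CR1- replicate 1 lay within the CX3CR1+ range, and the means of 98.5 ± 17.8 and 79.9 ± 6.20 (SD, n = 3) gave a log2 fold change of 0.29 (SE 0.27, 95% interval -0.31 to 0.88, adjusted p = 0.489, limma). The level of Trex1 is uncertain, because 97.6% of the 31-base words in its transcripts also occur in transcripts of Atrip, a neighbouring gene of the DNA damage response. Atrip was at 47.7 ± 19.7 and 54.2 ± 18.6 (SD, n = 3), and how the reads were divided between the genes cannot be seen in the table.

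None of the RNA sensor genes passed the test. Ddx58, the gene of RIG-I (chromosome 4, 40203773 to 40239828, minus strand), was at 240.3, 248 and 251 in CX3CR1- and 282, 268 and 333 in CX3CR1+ libraries. The groups did not overlap although the difference was small: means were 246 ± 5.33 and 294 ± 34.2 (SD, n = 3), with a log2 fold change of -0.25 (SE 0.20, 95% interval -0.69 to 0.19, adjusted p = 0.415, limma). Ddx58 had the smallest spread of the 10 genes in CX3CR1- libraries.

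Ifih1, the gene of MDA5, which prefers long double-stranded RNA (chromosome 2, 62595798 to 62646255, minus strand), was at 339, 388 and 556 in CX3CR1- libraries. In CX3CR1+ libraries it was at 671, 589.7 and 619. CX3CR1- replicate 3 stood nearest to the other group, and no value crossed. The means were 428 ± 114 and 627 ± 41.2 (SD, n = 3), and the log2 fold change of -0.58 (SE 0.22, 95% interval -1.06 to -0.10) had an unadjusted p of 0.0230 and an adjusted p of 0.0803 in limma. Without CX3CR1- replicate 3 the log2 fold change was -0.78 and the adjusted p 0.0151, whereas the other 14 settings gave adjusted p-values above 0.05, up to 0.271.

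Dhx58 encodes LGP2, a helicase without signalling domain that modulates the other RNA sensors (chromosome 11, 100694884 to 100704271, minus strand). It was at 27.8, 70.5 and 45.6 in CX3CR1- and 76.7, 70.8 and 49.4 in CX3CR1+ libraries. The groups overlapped, with CX3CR1- replicate 2 at the level of the CX3CR1+ replicates. This was the gene with the fewest reads of the 10, and its log2 fold change was -0.52 (SE 0.39, 95% interval -1.39 to 0.36, adjusted p = 0.390 in limma). Its exons overlap those of Dhx58os on the other strand, which was at 6.95 ± 3.21 and 9.46 ± 2.68 (SD, n = 3).

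Mavs, the gene of the adaptor that RIG-I and MDA5 share (chromosome 2, 131234063 to 131248025), had the widest relative spread of the 10 genes in CX3CR1- libraries. It was at 216, 145 and 40.5 in CX3CR1- libraries, a 5.34-fold range, and at 108, 119 and 142 in CX3CR1+ libraries. The CX3CR1+ values thus all lay inside the range of the CX3CR1- values, with coefficients of variation of 14.3% and 66.0%. Means were 134 ± 88.4 in CX3CR1- and 123 ± 17.6 in CX3CR1+ cells (SD, n = 3), whereas the mean log2 values differed by -0.17 (SE 0.52, 95% interval -1.32 to 0.98, adjusted p = 0.849 in limma), so that the sign depends on the scale. Without CX3CR1- replicate 3 the log2 fold change was 0.53 with an adjusted p of 0.209, so that 1 library sets its sign, and scaling to an equal total of genes not mitochondrially encoded brought it to 0.0015. No difference in Mavs was detectable with this spread.

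Downstream of both adaptors, the kinase gene Tbk1 (chromosome 10, 121546455 to 121586787, minus strand) was at 354, 349 and 329 in CX3CR1- and 512, 522 and 647 in CX3CR1+ libraries. The groups did not overlap, and the CX3CR1- libraries lay close together. Means of 344 ± 13.1 and 560.2 ± 75.0 (SD, n = 3) gave a log2 fold change of -0.69 (SE 0.19, 95% interval -1.11 to -0.28, adjusted p = 0.0207, limma), again under 2-fold. The adjusted p was 0.0501, 0.0605 and 0.106 without CX3CR1+ replicates 1, 2 and 3, and 0.0759, 0.0578 and 0.0766 under scaling to an equal total of genes not mitochondrially encoded, quantile normalization and no trend. The log2 fold change lay between -0.75 and -0.52 in all 15 settings.

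Irf3, the gene of the transcription factor that TBK1 phosphorylates (chromosome 7, 44997648 to 45002848), ran the other way. It was at 178, 204 and 180.2 in CX3CR1- and 162, 121 and 128 in CX3CR1+ libraries. All CX3CR1- values were above all CX3CR1+ values, and the means were 187 ± 14.7 and 137 ± 21.7 (SD, n = 3). The log2 fold change of 0.46 (SE 0.23, 95% interval -0.06 to 0.97) did not pass, with an adjusted p of 0.189 in limma, and lay between 0.37 and 0.63 in all 15 settings.

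**Figure D2:**
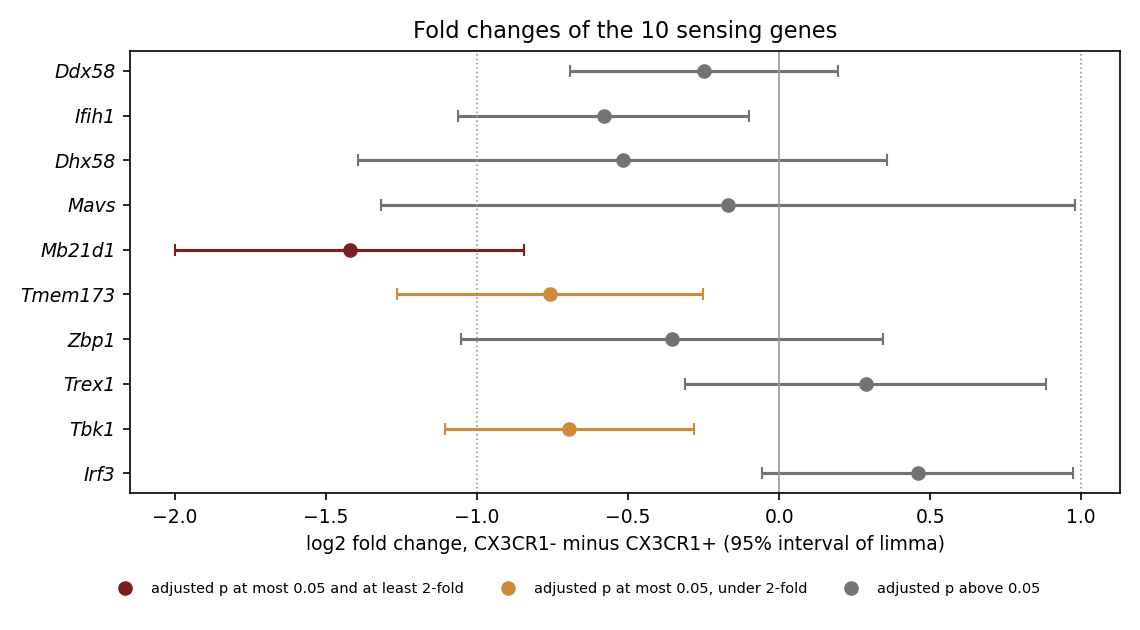
Log2 fold change (x axis, CX3CR1- minus CX3CR1+, limma on log2(value + 1)) of the 10 genes with 95% intervals; the dotted lines mark 2-fold. Mb21d1 at -1.42 is the gene past both thresholds, Tmem173 and Tbk1 pass the adjusted p alone, and Irf3 and Trex1 lie above 0.

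Over the 10 genes, 8 log2 fold changes were below 0 (7 after scaling to an equal total of genes not mitochondrially encoded), and their median was -0.44 beside -0.0035 over all tested genes. At an adjusted p of at most 0.05, whatever the size of the change, 3 of 10 were lower and 0 higher, against 11.0% and 13.3% of all tested genes. The groups did not overlap for 5 genes lower and 1 gene higher in CX3CR1- cells, where 19.8% and 20.3% of all tested genes were separated in these directions. For 6 of the 10 genes the 95% interval of the log2 fold change included 0. The estimates ran from -1.42 for the DNA sensor Mb21d1 to 0.46 for Irf3, which did not pass the test. No library was low or high throughout: CX3CR1- replicate 1 was the lowest of its group for 6 of the 10 genes and the highest for 2, and CX3CR1+ replicate 1 was the highest for 6 and the lowest for 2. On the log2 scale, 6 of the 10 genes (60%) and 70.0% of all tested genes had the larger SD in CX3CR1- libraries.

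Ratios of a pair of genes within a library do not depend on the scaling between libraries, and 7 pairs were compared. The ratio of Tbk1 to Irf3 was 1.99, 1.71 and 1.83 in CX3CR1- and 3.17, 4.33 and 5.03 in CX3CR1+ libraries. Kinase and transcription factor were thus expressed in a 2.22-fold different proportion on average, with no overlap. Relative to the sensor Mb21d1, the nuclease gene Trex1 was at 1.08, 0.705 and 1.03 in CX3CR1- and 0.267, 0.324 and 0.254 in CX3CR1+ libraries. This 3.27-fold difference was the largest of the 7, with the limit on Trex1 given above. Tmem173 relative to Mb21d1 was 1.90, 1.19 and 1.20 against 0.997, 0.909 and 0.746, and Zbp1 relative to Mb21d1 was 2.73, 2.25 and 1.14 against 1.09, 0.913 and 0.760. These were 1.58-fold and 2.09-fold higher in CX3CR1- cells, again without overlap, and all 3 pairs with Mb21d1 share its low CX3CR1- values. Each of these 4 pairs had p = 0.1 in the exact two-sided permutation test, the smallest possible with 3 against 3, and 0.175 after Benjamini-Hochberg adjustment over the 7.

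The ratios among RNA sensors overlapped. Ifih1 relative to Ddx58 was 1.41, 1.57 and 2.22 in CX3CR1- and 2.38, 2.20 and 1.86 in CX3CR1+ libraries (exact permutation p = 0.3, adjusted p = 0.42). Dhx58 relative to Ddx58 ranged from 0.116 to 0.285 and from 0.149 to 0.272 (exact permutation p = 0.7). The adaptor ratio of Mavs to Tmem173 spanned 0.294 to 1.48 in CX3CR1- and 0.355 to 0.660 in CX3CR1+ libraries (exact permutation p = 0.5, adjusted p = 0.583). With 3 libraries each, the exact test could not have reached 0.05 for any pair.

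**Figure D3:**
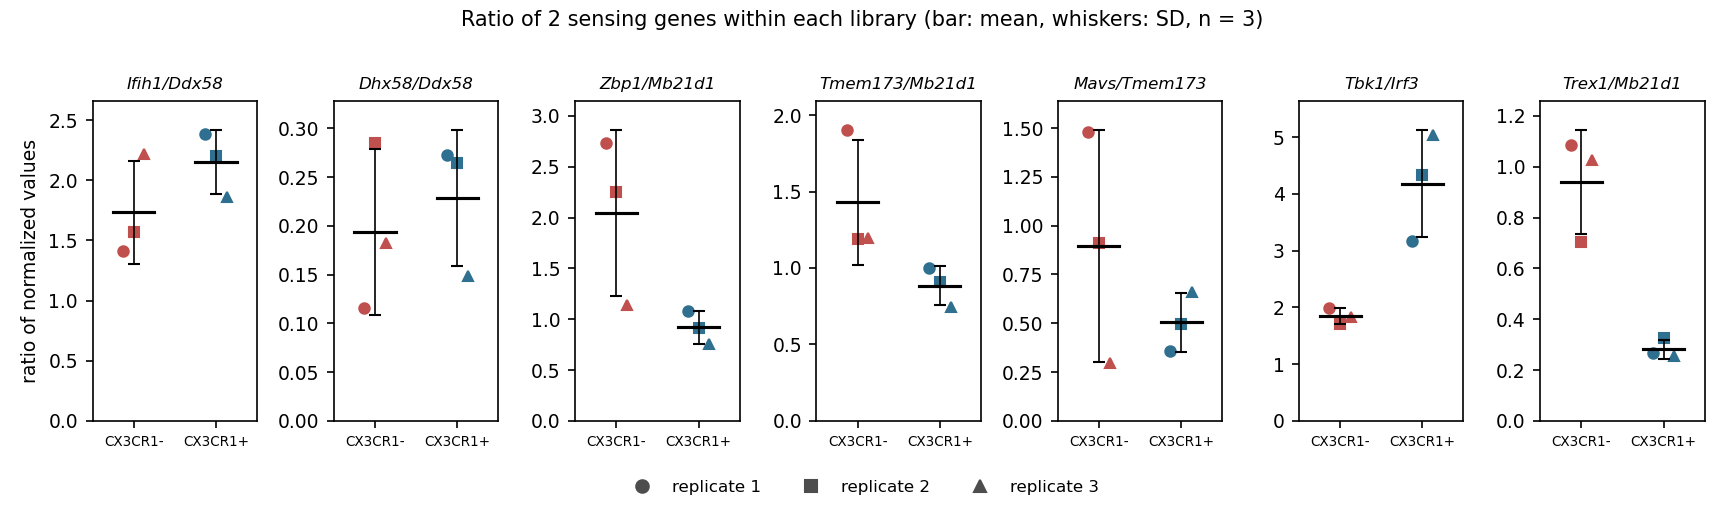
Ratio of the normalized values of a pair of genes within each library (linear y axis from 0) for the 7 pairs, with red for CX3CR1-, blue for CX3CR1+, bars for the mean and whiskers for the SD (n = 3). Tbk1/Irf3 is lower and the 3 ratios to Mb21d1 are higher in CX3CR1- libraries without overlap, and the other 3 pairs overlap.

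To set the genes beside each other, the normalized value was divided by the mean length of the coding transcripts of each gene. Zbp1 and Tbk1 had the highest levels per kilobase in both populations, at 155 ± 61.6 and 114 ± 4.33 in CX3CR1- and 191 ± 42.6 and 185 ± 24.8 in CX3CR1+ cells (SD, n = 3). Dhx58 had the lowest, at 19.9 ± 8.89 and 27.2 ± 5.95. In CX3CR1- cells the order from high to low was Zbp1, Tbk1, Irf3, Ifih1, Trex1, Tmem173, Ddx58, Mavs, Mb21d1 and Dhx58. The library values of neighbours in this order overlapped, except for Trex1 (92.2 ± 16.6) above Tmem173 (67.9 ± 4.99). In CX3CR1+ cells it was Zbp1, Tbk1, Ifih1, Tmem173, Irf3, Mb21d1, Ddx58, Trex1, Mavs and Dhx58. Here the neighbours Tbk1 and Ifih1 (138 ± 9.08), Tmem173 (116 ± 20.8) and Irf3 (79.4 ± 12.6), Trex1 (74.7 ± 5.80) and Mavs (41.5 ± 5.93), and Mavs and Dhx58 did not overlap. Irf3, Mb21d1, Ddx58 and Trex1 formed a run of overlapping neighbours between 74.7 and 79.4 per kilobase. Mb21d1 thus stood in place 9 of 10 in CX3CR1- cells, at 29.8 ± 7.96, and in place 6 in CX3CR1+ cells, at 78.4 ± 5.62. The limit on Trex1 given above holds for its place in both orders, and so for its separation from Tmem173 and from Mavs. The mean transcript length is that of the annotation, and the isoforms used in these cells were not measured.

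**Figure D4:**
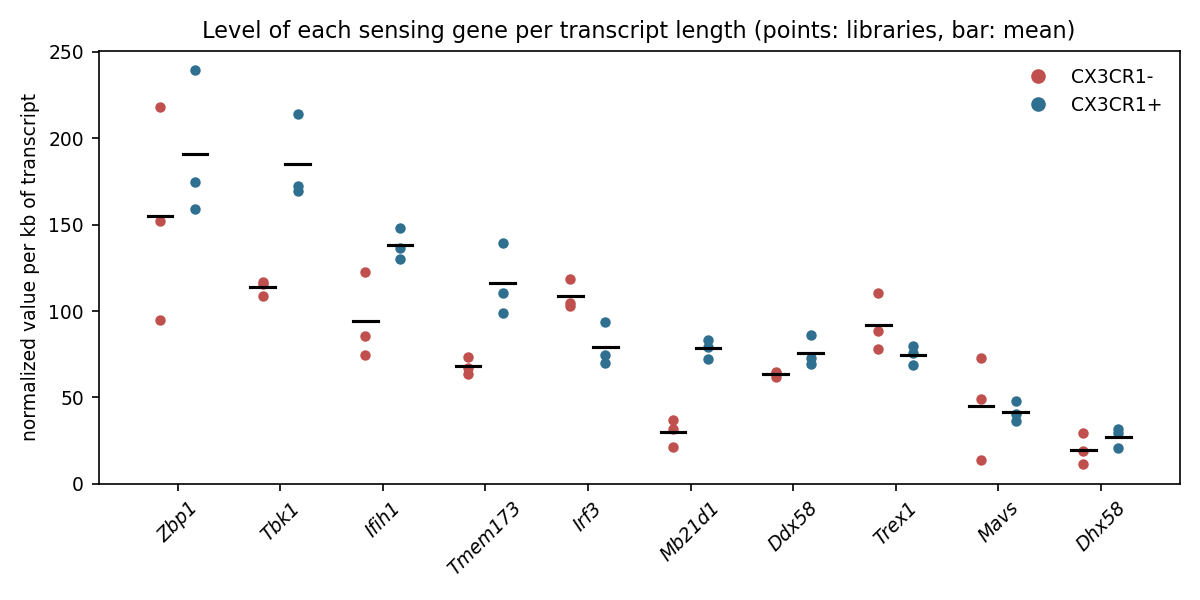
Level per kilobase of transcript of the 10 genes in CX3CR1- (red) and CX3CR1+ (blue) cells, with 1 point per library (n = 3) and a bar for the mean. Zbp1 and Tbk1 are highest and Dhx58 lowest in both populations, and Mb21d1 moves from 29.8 in CX3CR1- to 78.4 in CX3CR1+ cells.

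The other genes of the pathway were taken in lists by role. Beside the counts of each list, the share of all tested genes called lower was 8.15% and the share called higher was 12.2%. Of 27 regulators of the RNA sensors, 1 was called higher and 1 lower, with a median log2 fold change of -0.08. Rnf135, the ubiquitin ligase that activates RIG-I, was lower in CX3CR1- cells, at 25.9, 17.1 and 34.4 against 61.1, 75.3 and 72.8 (log2 fold change -1.45, SE 0.36, adjusted p = 0.0155, limma). This count fell to 0 without CX3CR1+ replicate 2 or 3. Rnf125, a ubiquitin ligase that marks RIG-I and MAVS for degradation, was at 26.1, 17.9 and 30.9 in CX3CR1- libraries and at 3 reads or fewer in every CX3CR1+ library, at least 9.25-fold higher against the mean level of 3 reads per library.

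Of 26 regulators of cGAS and STING, 0 were called higher and 2 lower, with a median of -0.0019. The count called higher was 1 under scaling to an equal total of genes not mitochondrially encoded and without CX3CR1- replicate 2. Ifi204, a DNA-binding protein of the PYHIN family that acts with STING, was at 188, 296 and 324 in CX3CR1- and 1464, 1313 and 1407 in CX3CR1+ libraries. It changed more than any of the 10 sensing genes, with a log2 fold change of -2.40 (SE 0.22, adjusted p = 4.37e-05, limma). Sequence shared with other genes was counted for the 10 sensing genes only, so it is not known for Ifi204. Rhbdf2, the iRhom2 protein that helps STING to move and to stay stable, was at 116 ± 18.7 against 358 ± 48.6 (SD, n = 3; log2 fold change -1.63, adjusted p = 6.14e-04, limma). The 2 genes called lower are 2 of 26, beside the share of 8.15% over all tested genes.

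Among 16 nucleases and clearance genes, Dnase2a, the lysosomal DNase of phagocytes, was lower in CX3CR1- cells, at 96.1, 136 and 98.3 against 335, 294 and 215 (log2 fold change -1.34, SE 0.26, adjusted p = 0.00408, limma). Dnase1, a secreted DNase, was higher, at 166, 67.7 and 19.6 against 10.1, 2.93 and 10.5 (log2 fold change 2.96, SE 0.75, adjusted p = 0.0165, limma). Its call was lost without CX3CR1- replicate 1 or 2 or CX3CR1+ replicate 2, which left 0 genes of this list called higher. The other 14 were not called, and the median was -0.20.

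Of 27 kinases, adaptors and factors downstream, 1 was called: Tank, a scaffold that binds TBK1, was at 571, 489.8 and 711 in CX3CR1- and 1976, 2605 and 1851 in CX3CR1+ libraries. The groups lay far apart (log2 fold change -1.86, SE 0.20, adjusted p = 1.11e-04, limma), so that Tank was lower together with Tbk1. The count called lower was 2 or 3 under quantile normalization and without CX3CR1- replicate 1, CX3CR1- replicate 2 or CX3CR1+ replicate 1. The median of the list was -0.22.

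Of the interferons and their receptors, 7 were in the table and 5 were tested. The receptor chains for type I interferon were both lower in CX3CR1- cells: Ifnar1 at 519 ± 87.7 against 1118 ± 167 (SD, n = 3; log2 fold change -1.11, adjusted p = 0.00246, limma) and Ifnar2 at 352 ± 35.1 against 879 ± 71.4 (SD, n = 3; log2 fold change -1.32, adjusted p = 4.32e-04, limma). Ifnar1 fell below 2-fold, at log2 fold changes of -0.94, -0.84 and -0.96, under scaling to an equal total of genes not mitochondrially encoded, under quantile normalization and without CX3CR1- replicate 1. Ifngr2, a chain of the type II receptor, was lower as well, by a log2 fold change of -1.60 (limma, adjusted p = 2.62e-04). Ifnlr1, the specific chain of the type III receptor, which epithelial cells are known to carry, was higher, at 26.1, 25.0 and 17.9 against 2.78, 3.28 and 11.3 (log2 fold change 2.02, adjusted p = 0.0441, limma). Its call was lost when any 1 library was left out except CX3CR1+ replicate 3. The interferon gene Ifnb1, the product of the pathway, had values of 3.13, 5.36 and 22.9 in CX3CR1- and 3.70, 4.92 and 4.25 in CX3CR1+ libraries and was not tested for its low mean. Its values in CX3CR1- replicates 1 and 2 and in CX3CR1+ replicate 3 were at the level of 3 reads. CX3CR1- replicate 3 alone stood above the others. Ifnk, the other listed interferon gene in the table, was at 1.04, 7.15 and 3.99 in CX3CR1- libraries. In CX3CR1+ libraries it was at 0.463, 2.46 and 0, which is 3 reads or fewer in each, and it was not tested either.

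Interferon-stimulated genes other than the sensors were called lower in CX3CR1- cells for 10 of 25 and higher for 0, with a median of -0.77. Over all tested genes these shares were 8.15% and 12.2%. At an adjusted p of at most 0.05, whatever the size of the change, 10 were lower and 1 higher. The count called higher was 1 under scaling to an equal total of genes not mitochondrially encoded and without CX3CR1- replicate 1. The 4 genes of this list with the largest log2 fold changes were the antiviral genes Mx2 (-2.19), Oas1g (-2.10), Oas2 (-1.94) and Bst2 (-1.85). Of these, Mx2 was at 19.5 ± 2.13 against 92.4 ± 8.12 (SD, n = 3). Oas1g belongs to a family of near-identical copies, so its level is uncertain. Of the interferon-inducible RNA sensors Ddx58, Ifih1 and Dhx58, and of Zbp1, none was called. Of 5 endosomal nucleic acid receptors, which read nucleic acid outside the cytosol, 4 were called lower in CX3CR1- cells, ranging on the log2 scale from -4.02 for Tlr7 to -1.55 for Tlr9, and Tlr3 was called higher (1.25). Of 3 genes for their chaperone and adaptors, 1 was called lower, the chaperone gene Unc93b1 (log2 fold change -1.06, adjusted p = 0.00194, limma). Its call was lost under scaling to an equal total of genes not mitochondrially encoded and under quantile normalization. It was also lost without CX3CR1- replicate 1 or 3.

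**Figure D5:**
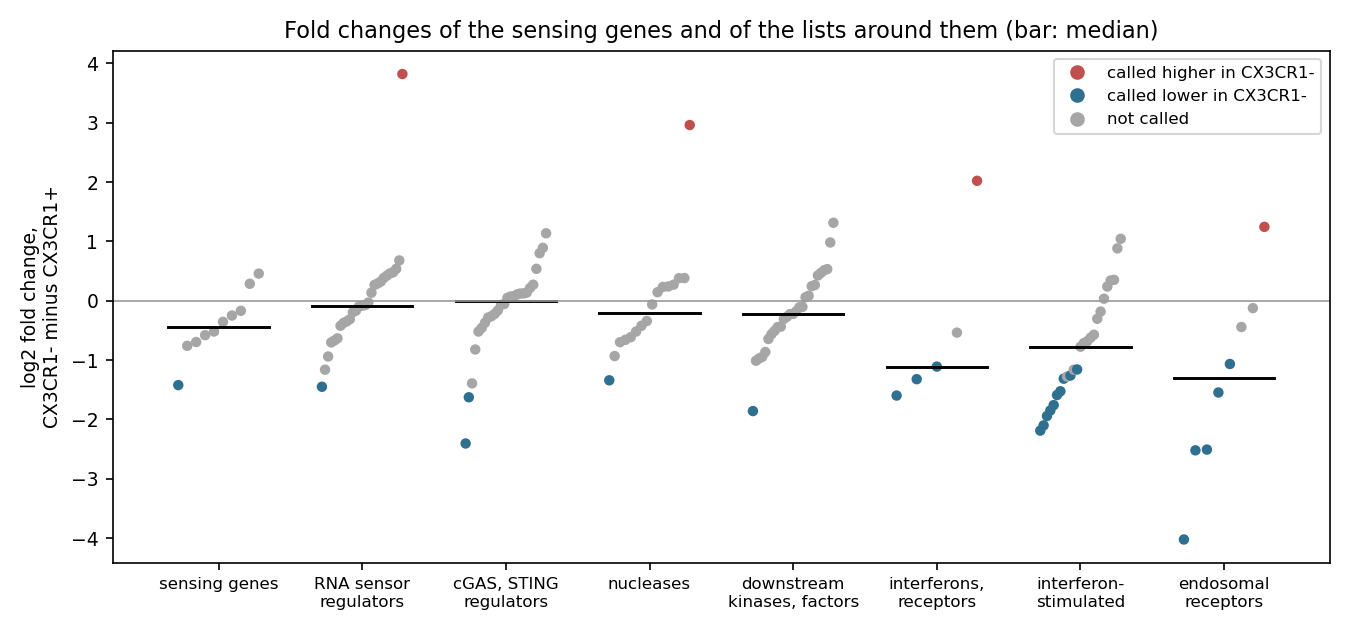
Log2 fold change (CX3CR1- minus CX3CR1+) of each tested gene of the sensing genes and the pathway lists, with 1 point per gene and the median of each list. The sensing genes have a median of -0.44, beside -0.0035 over all tested genes. The medians are -0.08 for RNA sensor regulators, -0.0019 for cGAS and STING regulators, -0.20 for nucleases and -0.22 for downstream kinases and factors. They are -1.11 for interferons and receptors (5 tested genes), -0.77 for interferon-stimulated genes and -1.31 for endosomal receptors with their chaperone and adaptors (8 tested genes).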

How the data were processed

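Bulk RNA-seq libraries of sorted ME cells were grouped by the population named in the sample labels. The authors pseudoaligned the reads to the mouse transcriptome (GENCODE M16) with Kallisto and used tximport for gene sums, which DESeq2 then put on a common scale. What was deposited is thus a normalized signal for each of the 6 libraries, not counts: 41.0 to 42.7% of the values above 0 were whole multiples of the smallest step of a library (tolerance 0.001), so no count test was run. That step gave the approximate depth and the level of 3 reads.

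A gene was tested if its 6 values averaged 10 or more (17812 of 26110, with 23 symbols listed more than once, none a sensing gene). Differences were tested two-sided on log2(value + 1) with lmFit and eBayes of limma 3.58.1 (R 4.3.3), using an intensity trend, and p-values were adjusted after Benjamini and Hochberg. A fold change on this scale understates the change of low genes. Tested on simulated data with known changes of these 6 libraries, the limma fit recovered 161 of 198 changed genes, with 3 false calls among 18201 genes tested. Far fewer genes changed in the simulation than were called here (1451 lower and 2177 higher of 17812), so its rates need not hold for these data. An exact two-sided permutation test over libraries stands beside the limma fit. Alternatives were pseudocounts of 0.5 and 10, no filter, a minimum mean of 50, rescaling by median of ratios, an equal total of genes not mitochondrially encoded, quantile normalization, no trend, library quality weights and leaving out each library, which makes 15 settings. A block of adjacent library numbers, and macrophage markers without Cx3cr1, were added after seeing the data.

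The members and the lists were chosen with earlier results of these data known. All 10 members are named, and of each pathway list only called genes, at most the 8 with the largest change, plus interferon genes whatever their values. Lists are described by counts and medians, with no set test. Markers of T and NK cells (1 higher and 1 lower of 4 tested), smooth muscle (0 of 6), neutrophils and monocytes (2 higher and 1 lower of 4) and plasmacytoid dendritic cells (1 higher and 2 lower of 6) were also counted. Positions, transcript lengths and shared 31-base words came from GENCODE M21 on GRCm38, which is a later release than that of the authors, and promoters from RefSeq. In these references Mb21d1 is named Cgas. Plots were drawn with matplotlib 3.10.9.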

Additional observations from a re-analysis of the deposited data

How the results depend on the processing

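Mb21d1 was called lower in all 15 alternative settings, and no other of the 10 genes was called in any of them. The number of sensing genes with an adjusted p of at most 0.05 in limma, 3 in the reported fit, was 1 after scaling to an equal total of genes not mitochondrially encoded and 1 without a trend. Leaving out each library gave 1 to 3. Mavs changed sign after that scaling (log2 fold change 0.0015) and without CX3CR1- replicate 3 (0.53), with a range of -0.66 to 0.53 over the libraries left out. That scaling moved the median of all genes to 0.17 and that of the sensing genes to -0.27, and quantile normalization moved them to -0.15 and -0.38. With a mean of at least 50 as the filter, 1232 of all genes were called higher instead of 2177, since 10208 genes were tested. Of the 150 log2 fold changes of the 10 genes under alternatives, 134 kept their direction and side of the threshold, 13 were no longer past it, 1 passed it and 2 reversed. Ifih1 was the 1 gene that passed it. The log2 differences of the 7 ratios moved by less than the larger group SD in 49 of 49 values. For the values with 1 library left out this was fixed in advance. With 3 libraries per group, leaving 1 out cannot move a group mean by a full SD. Only the values with a pseudocount of 10 could have moved further. The difference for Mavs to Tmem173 went from 0.59 to 0.090 without CX3CR1- replicate 1 and to 1.24 without CX3CR1- replicate 3. Whether the groups overlapped was not counted there. The difference for Dhx58 to Ddx58 changed sign, from -0.27 to 0.049, without CX3CR1- replicate 1. Levels without division by length give no order between genes. The labels give no replicate numbers that the populations share, but the library numbers in the titles form 3 adjacent pairs with 1 library of each population. A fit with these pairs as a replicate block, chosen after seeing the data, left 3 sensing genes with an adjusted p of at most 0.05, the same genes as without it (Mb21d1 0.00502, Tbk1 0.0336 and Tmem173 0.0484), and called 1445 genes lower and 2165 higher. Of the named pathway genes, it ended the call of Ifnlr1. Depth was lowest for Dhx58, with about 27 to 166 reads per library and a 95% interval of -1.39 to 0.36 for its log2 fold change.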
